A study of Homo sapiens with 6 samples.

Results

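The S100 genes described here encode small calcium-binding proteins, and 10 of them were followed in BEAS-2B cells, an established line of human bronchial epithelial cells, across 6 RNA-sequencing libraries. They were chosen by symbol from the deposited expression table, which lists 35019 genes, and each symbol had 1 Ensembl identifier. The table lists 20 protein-coding S100 genes in all, so 10 others lie outside the list. The 3 libraries labelled RSL3+ID came from cells given indirubin 2 h before RSL3. The 3 libraries labelled RSL3 came from cells given RSL3, a covalent inhibitor of the lipid peroxidase GPX4 that is used to start ferroptosis, alone. RSL3 was used at 2 µM for 24 h, and indirubin, a plant-derived indole dye that inhibits several kinases and binds the aryl hydrocarbon receptor, is given only as a range of 7.5 to 30 µM. None of the 6 libraries came from untreated cells or from cells with indirubin alone. An effect of indirubin itself therefore cannot be told apart from a changed response to RSL3. Both groups are 1 immortalised line, and no label states whether replicate libraries were separate cultures, so p-values measure only the spread between libraries, which may be technical.

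S100 proteins are EF-hand proteins that mostly act as dimers. Calcium opens a hydrophobic surface on each subunit, which then grips a target such as an annexin, a myosin heavy chain or a cytoskeletal linker. Several members are also released from cells and bind the receptor AGER (RAGE), and most of their genes lie together on chromosome 1 in the region of the epidermal differentiation complex. S100A4 has been described as a target of β-catenin and TCF in colon cancer cells, and the title of the series names the Wnt/β-catenin pathway.

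The libraries held between 15206183 and 18506637 reads on listed genes, at which depth 3 reads correspond to 0.162 to 0.197 CPM, the limit that a count of 0 allows (counting error only). Pearson correlations of log2 values were 0.957 to 0.977 within groups and 0.946 to 0.967 between groups. Principal components were taken over the tested genes that varied most. On the first (27.6% of the variance), RSL3+ID libraries 1 to 3 were at −28.0, −7.61 and −13.6 and the RSL3 libraries at 15.3 to 17.1. RSL3+ID library 2 stood apart on the second (26.4%), at −31.3. The other libraries of its group were at 15.4 and 1.37 there, and the RSL3 libraries at −10.8 to 19.8. The results below that RSL3+ID library 2 moved most are also given without it. Of 12 airway epithelial markers, 8 reached a mean normalised count of 10. KRT8, a keratin of simple epithelia, had 17096 to 20558 normalised counts with RSL3+ID and 21190 to 24043 with RSL3. The summed level of the epithelial list was 43479 to 54506 with RSL3+ID and 55496 to 59159 with RSL3, and its part in the S100 results was not tested. Of the 8 tested epithelial markers, 1 had a positive estimate and 7 a negative one, while 48.5% of all tested genes had a positive one. 1 of the 8, the keratin gene KRT18, fell (log2 fold change −0.66, limma adjusted p = 0.0361), against 0.832% of all tested genes. Its adjusted p was 0.00270 without RSL3+ID library 2 and 0.0720 to 0.262, not called, without any 1 of the other libraries. The KRT18 estimate stayed between −0.71 and −0.60 in all of these settings. Leaving out any 1 library but RSL3+ID library 2 called 0 to 4 of all tested genes. Among the basal cell genes of the list, KRT5 and TP63 were near 0, with at most 5.28 and 2.89 normalised counts in any library. KRT14 had 13.5 to 15.8 with RSL3+ID and 2.68 to 8.26 with RSL3. Others were higher: KRT17 had 9634 to 11150 with RSL3+ID and 10854 to 11807 with RSL3. ITGA6 had 423 to 599 with RSL3+ID and 483 to 689 with RSL3, and ITGB4 272 to 330 and 360 to 416. The adhesion gene CDH1 had 2.97 to 39.1 with RSL3+ID and 1.79 to 7.23 with RSL3. The intermediate filament gene VIM, a mesenchymal marker, had 4662 to 10206 normalised counts with RSL3+ID and 8072 to 8990 with RSL3. The summed mesenchymal list was 10576 to 22343 with RSL3+ID and 17290 to 20760 with RSL3, the leukocyte list, most of it CD14 and including S100A8 and S100A9, 526 to 840 with RSL3+ID and 414 to 620 with RSL3, and the endothelial list 68.4 to 205 with RSL3+ID and 117 to 150 with RSL3. The T cell gene CD3E had 0 reads in every library. Their part in the S100 results was not tested. In such libraries a smaller number of cells of a type and a lower amount of RNA in each of them cannot be told apart.

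Setting RSL3+ID against RSL3 compares cells given indirubin before RSL3 with cells given RSL3 alone. None of the 10 S100 genes passed limma's test across 14188 genes at an adjusted p of 0.05, which called 1.91% of all tested genes (1.08% higher and 0.832% lower in RSL3+ID). 3 had an unadjusted p under 0.05 (S100P, S100A13 and S100A6), against 19.3% of all tested genes, and limma-voom on the recovered reads also called 0 of the 10. The estimates were positive for 7 genes and negative for 3, with a median log2 fold change of 0.26, against −0.016 over all tested genes. Tested genes of the same transcript lengths had a median of 0.20, and 68.9% of them had a positive estimate. In 3 genes every RSL3+ID library lay above every RSL3 library, against 12.8% of all tested genes and 24.2% of those of the same lengths. In 1 gene every RSL3+ID library lay below, against 12.6% and 3.93%. With 3 libraries against 3, an exact 2-sided permutation test cannot go below 0.10, and these 4 genes reached it.

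**Figure D1:**
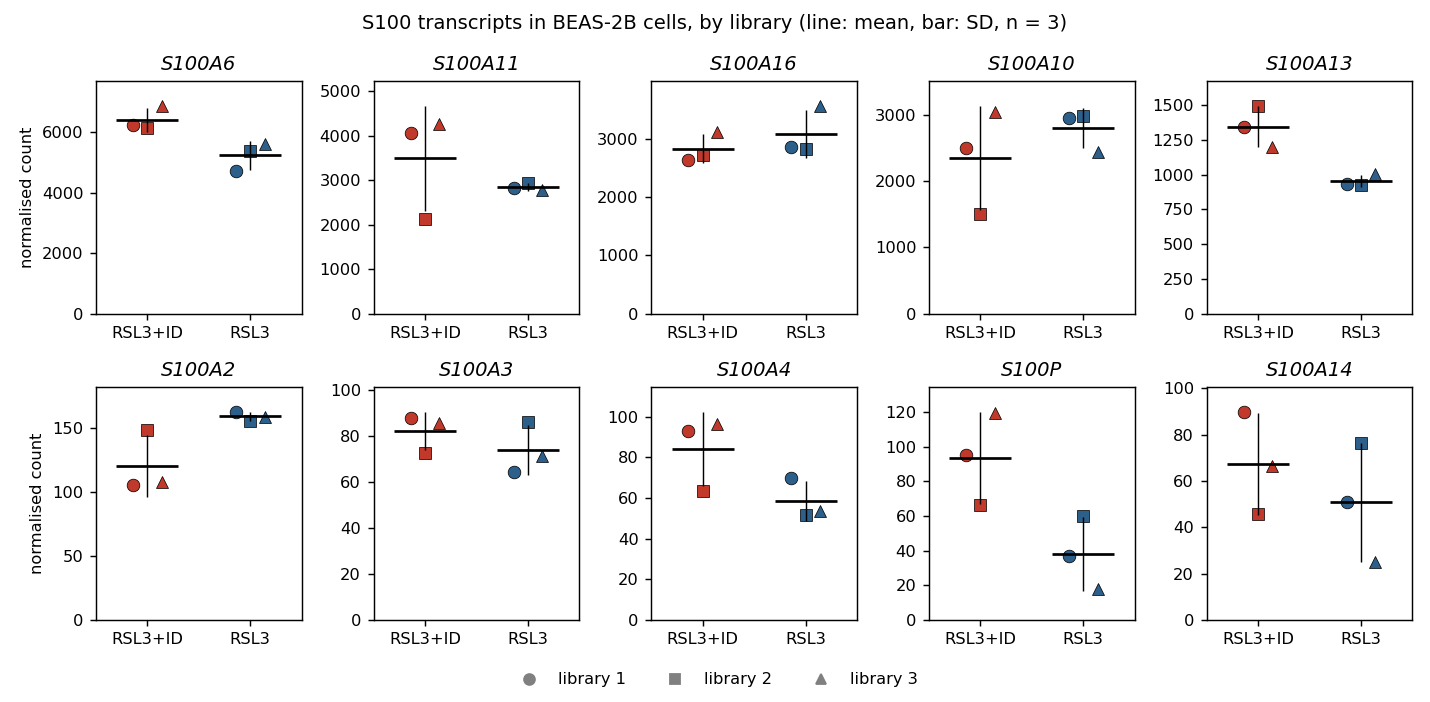
Normalised counts (y axes, from 0) of the 10 S100 genes in each library, with RSL3+ID left and RSL3 right in each panel; symbols mark libraries 1 to 3, lines the mean and bars the SD. S100P, S100A13 and S100A6 lay higher in all 3 RSL3+ID libraries, S100A2 lay lower in all 3, and S100A10 and S100A11 were lowest in RSL3+ID library 2.

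The starts of the S100 genes are shown because the genes with the highest estimates over all 6 libraries shared a short motif there. All 10 genes had at least 1 start in RefSeq's promoter table (GRCh38.p14), with 14 starts in all. For each motif a gene counted if any of its starts held it, whereas the share given beside it is over single promoters, so they are not like for like. A TATAA on the gene strand in the 30 bases from 40 to 11 before the start was found in 5 of the 10 genes, S100A4, S100A6, S100A13, S100A14 and S100P, and in 4.06% of the 35116 promoters in the table. With all libraries these 5 genes had the 5 highest estimates of the 10. Without RSL3+ID library 2 they did not, since S100A11, which lacks the motif, was at 0.55, above S100A13 at 0.41 and S100A6 at 0.33. Nor did they without RSL3 library 3, where S100A14 was at 0.054, below S100A11 at 0.21 and S100A3 at 0.13. Without RSL3 library 1, S100A6 at 0.221 was just below S100A11 at 0.223. The motif and window were chosen after the fold changes were seen, so this is a description with no test. The windows of the 3 genes with an unadjusted p under 0.05, of S100A4, and of S100A11, which lacks the motif, are shown 5′ to 3′ on the gene strand, with TATAA in capitals. For S100A13, which has 3 starts in the table, the single start with the motif is shown.
S100P: atgaggctgcctTATAAagcaccaagaggc
S100A13: tccccgctgctTATAAacctcagccctgag
S100A6: caccgaccgcTATAAggccagtcggactgc
S100A4: tggctggggTATAAataggtcagacctctg
S100A11: gtaaggcttgggcaaggctgggccgggaag
On GRCh38 the S100P window is chr4:6693838-6693867 on the plus strand. The others lie on the minus strand of chromosome 1, S100A13 at chr1:153627516-153627545, S100A6 at chr1:153536002-153536031, S100A4 at chr1:153545817-153545846 and S100A11 at chr1:152037015-152037044. In the 250 bases before the starts, the TCF/LEF core CTTTGAT was found on either strand in 0 of the 10 genes, against 2.26% of all promoters in the table. The AP-1 motif TGANTCA was found in S100A2 and S100A3 (6.57% of all promoters), and the antioxidant response element core TGACNNNGC in S100A13 and S100A14 (10.9% of all promoters). A match is not a site of binding, and the absence of one says only that these letters are not in this window.

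The genes spanned a wide range of abundance. Per kilobase of principal transcript, S100A6 came first, with 9540.5 ± 592 normalised counts per kb with RSL3+ID and 7786 ± 695 with RSL3 (SD, n = 3 each, as for all levels here). S100A11 followed with 5869 ± 1982 with RSL3+ID and 4783 ± 142 with RSL3. S100A16 had 2471 ± 219 with RSL3+ID and 2694 ± 362 with RSL3. S100A10 had 1959 ± 651 and S100A13 1961 ± 215 with RSL3+ID, and they had 2329 ± 254 and 1392 ± 63.1 with RSL3. The other 5 genes lay more than an order of magnitude below S100A6, between 55.2 for S100A14 and 140.4 for S100A4 with RSL3+ID, and between 29.7 for S100P and 159.5 for S100A2 with RSL3. Over the 6 libraries the ranges of neighbours in this order overlapped, except between S100A11 and S100A16 and between S100A13 and S100A2. With the merged length of all exons in place of the principal transcript, the first 5 kept their order with RSL3, while with RSL3+ID S100A13 came after S100A10 and not level with it. S100A13 then had 607.0 per kb with RSL3+ID and 430.8 with RSL3, and the order of the lower 5 changed. The 10 genes together took 0.0905% to 0.107% of the reads of the RSL3+ID libraries and 0.0914% to 0.0997% of those of the RSL3 libraries. S100A6 alone made up 43.2% ± 4.33 of the S100 level per kb with RSL3+ID and 40.1% ± 1.97 with RSL3. By library its share was 40.4%, 48.2% and 41.0% in RSL3+ID libraries 1 to 3. In RSL3 libraries 1 to 3 it was 37.9%, 40.6% and 41.8%, so RSL3+ID library 2 alone lay above them. The share of S100A10 was 8.62% ± 1.83 with RSL3+ID and 12.04% ± 1.65 with RSL3. By library it was 9.07%, 6.62% and 10.2% with RSL3+ID and 13.3%, 12.6% and 10.2% with RSL3.

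S100P, first described in placenta, binds the cytoskeletal linker ezrin and is a ligand of AGER. It had the largest estimate of the 10 genes. Its normalised counts were 95.04, 66.4 and 119.4 in RSL3+ID libraries 1 to 3, against 36.6, 59.9 and 17.6 in RSL3 libraries 1 to 3. All 3 RSL3+ID libraries were higher, and the closest values were 66.4 in RSL3+ID library 2 and 59.9 in RSL3 library 2. These values rest on 67 to 124 reads with RSL3+ID and 17 to 58 with RSL3. The log2 fold change was 1.40 (SE 0.44, 95% interval 0.44 to 2.35), and it did not pass (limma adjusted p = 0.114). Without RSL3+ID library 2 it was 1.62 and passed (adjusted p = 0.0241), and over all alternatives the adjusted p ran from 0.0241 to 0.329. In that setting 9.34% of all tested genes were called. With RSL3 library 1 also left out, S100P was at 1.68 (adjusted p = 0.0496) in a setting that called 3.59% of all tested genes. With 1 library left out, the S100P estimate ran from 0.94 without RSL3 library 3 (limma adjusted p = 0.259) to 1.80 without RSL3 library 2 (limma adjusted p = 0.153). The S100P window before the start, shown above, holds TATAA.

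S100A13 takes part in the export of FGF1 and interleukin 1α, proteins that leave cells without a signal peptide. It had 1343, 1494 and 1199 normalised counts in RSL3+ID libraries 1 to 3, against 931.9, 927.6 and 1005 in RSL3 libraries 1 to 3. The groups did not overlap, and the RSL3 libraries lay close together. The log2 fold change was 0.49 (SE 0.15, 95% interval 0.17 to 0.81, limma adjusted p = 0.105). The authors' deposited table lists genes under an adjusted p of 0.05, and only the 10 S100 genes were looked up in it. Of these 10, S100A13 alone is listed, at 0.49 on the log2 scale with SE 0.17 and an adjusted p of 0.0471. Under the alternatives the estimate ran from 0.37 to 0.57 and the adjusted p from 0.0729 to 0.360. S100A13 shares 235 exon bases with S100A1 on the opposite strand and 536 with the unnamed gene AL162258.1 on its own strand, and how the counting split such reads is not given in the sources used here. S100A1 had 27 to 29 reads with RSL3+ID and 16 to 27 with RSL3, against 1245 to 1507 reads for S100A13 with RSL3+ID and 898 to 1043 with RSL3. Of the cargo genes, FGF1 had a log2 fold change of −0.34 (adjusted p = 0.555, and −0.032 without RSL3+ID library 2) and IL1A one of 1.01 (adjusted p = 0.297) at 23.8 to 53.0 normalised counts with RSL3+ID and 10.3 to 23.2 with RSL3; the IL1A groups did not overlap.

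S100A6, or calcyclin, was the most abundant S100 transcript per length and binds CACYBP, an adaptor of ubiquitin ligases. Its normalised counts were 6236, 6148 and 6878 in RSL3+ID libraries 1 to 3, against 4717, 5385 and 5619 in RSL3 libraries 1 to 3. The groups did not overlap. The log2 fold change was 0.30 (SE 0.13, 95% interval 0.012 to 0.58, limma adjusted p = 0.241), and it was 0.12 with the trend on length and GC content removed. For CACYBP the estimate was −0.18 (adjusted p = 0.531).

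S100A2, a nuclear S100 protein of epithelia, was the single gene of the 10 with lower values in every RSL3+ID library. It had 105.6, 148.7 and 107.8 normalised counts in RSL3+ID libraries 1 to 3, against 162.6, 156.0 and 159.0 in RSL3 libraries 1 to 3. RSL3+ID library 2 came close to the lowest RSL3 library, and the other RSL3+ID libraries lay well below. The log2 fold change was −0.41 (SE 0.24, 95% interval −0.95 to 0.12, limma adjusted p = 0.378), and it was −0.57 (adjusted p = 0.184) without RSL3+ID library 2, with adjusted p values of 0.184 to 0.625 over all alternatives.

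S100A10 and S100A11 are neighbours on chromosome 1 and both partner annexins. S100A10, or p11, binds annexin A2 and plasminogen and has lost calcium binding in its EF-hands, while S100A11, or calgizzarin, binds annexin A1. S100A10 had 2503, 1509 and 3052 normalised counts in RSL3+ID libraries 1 to 3, against 2960, 2990 and 2448 in RSL3 libraries 1 to 3. S100A11 had 4057, 2132 and 4269 in the same order of RSL3+ID libraries, against 2815, 2936 and 2773 in RSL3 libraries 1 to 3. Both were lowest in RSL3+ID library 2. The other RSL3+ID libraries lay above every RSL3 library for S100A11, whereas for S100A10 they lay on both sides of RSL3 library 1 and 2. With all libraries the log2 fold changes were −0.30 for S100A10 (SE 0.22, limma adjusted p = 0.483) and 0.23 for S100A11 (SE 0.22, limma adjusted p = 0.615). Without RSL3+ID library 2, S100A11 rose with a log2 fold change of 0.55 and passed (adjusted p = 0.00744, with a range of 0.00744 to 0.959 over all alternatives), and S100A10 was at −0.013 (adjusted p = 0.970). That setting called 9.34% of all tested genes. With RSL3 library 1 also left out, S100A11 was at 0.54 and did not pass (adjusted p = 0.0522).

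Within each library the log2 level of S100A11 minus that of S100A10 was 0.70, 0.50 and 0.48 in RSL3+ID libraries 1 to 3, against −0.07, −0.03 and 0.18 in RSL3 libraries 1 to 3. RSL3+ID library 2 lay with its own group in this difference, which does not depend on how libraries are scaled. The means were 0.56 ± 0.12 with RSL3+ID and 0.027 ± 0.13 with RSL3 (SD, n = 3 each). This difference was picked after its values were seen and has no test. Among the 45 pairs of the 10 genes, 12 had such a difference with the groups apart, and this pair was sixth by the gap between them. The share over pairs of all tested genes was not computed. Of all tested single genes, 12.8% had the groups apart with RSL3+ID higher and 12.6% with RSL3+ID lower, so groups apart are common here. Both annexin partners dipped in RSL3+ID library 2 as well. ANXA2 had 30021, 20270 and 40255 normalised counts in RSL3+ID libraries 1 to 3, against 26807 to 33236 with RSL3 (log2 fold change −0.017, adjusted p = 0.972, and 0.24 with an adjusted p of 0.252 without RSL3+ID library 2). ANXA1 had 2350, 1279 and 3084 in RSL3+ID libraries 1 to 3, against 2716 to 4873 with RSL3 (log2 fold change −0.73, adjusted p = 0.190, and −0.37 with an adjusted p of 0.372 without RSL3+ID library 2).

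**Figure D2:**
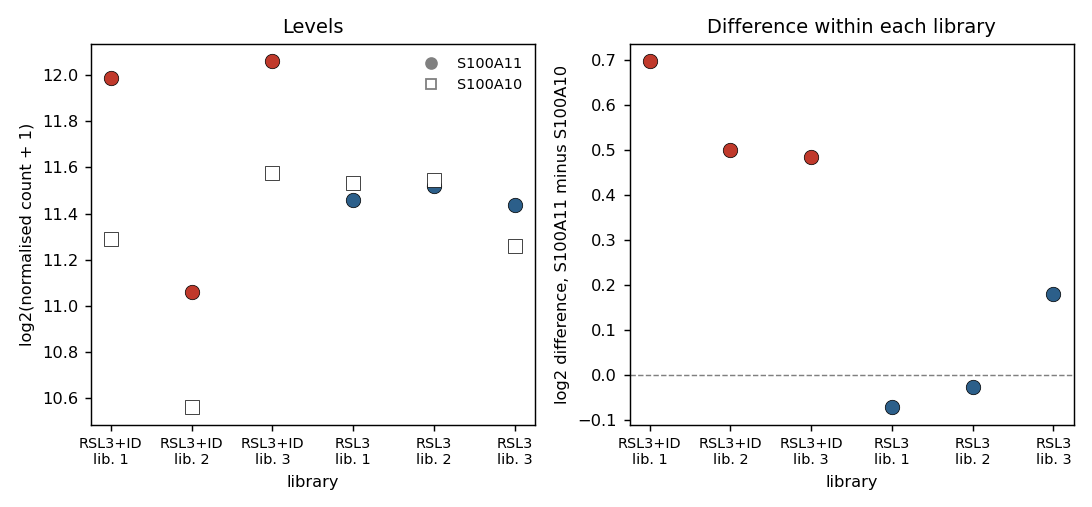
The left panel shows log2(normalised count + 1) of S100A11 (filled circles) and S100A10 (open squares) in each library on the x axis, and the right panel their difference within each library. Both genes were low in RSL3+ID library 2, while the difference was 0.48 to 0.70 with RSL3+ID and −0.07 to 0.18 with RSL3.

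The other 4 genes did not pass and their groups overlapped. S100A4, which binds non-muscle myosin IIA and is known for its part in cell migration, had 92.9, 63.4 and 96.3 normalised counts in RSL3+ID libraries 1 to 3, against 69.7, 51.6 and 53.7 in RSL3 libraries 1 to 3. RSL3+ID library 2 lay below RSL3 library 1. The log2 fold change was 0.51 (SE 0.31, 95% interval −0.17 to 1.19, limma adjusted p = 0.397), and MYH9, the gene of that myosin heavy chain, had one of −0.14 (adjusted p = 0.599). Without RSL3+ID library 2, S100A4 was at 0.70 (adjusted p = 0.210, with a range of 0.210 to 0.627 over all alternatives). S100A14, an epithelial member that binds AGER, had 89.8, 45.6 and 66.4 normalised counts in RSL3+ID libraries 1 to 3, against 50.9, 76.4 and 24.8 in RSL3 libraries 1 to 3. Its interval was wide (log2 fold change 0.49, SE 0.44, 95% interval −0.46 to 1.43, limma adjusted p = 0.581), and the estimate was 0.054 with RSL3 library 3 left out and 0.74 with RSL3+ID library 2 left out. S100A3, a cysteine-rich protein of the hair cuticle, had 72.4 to 87.7 normalised counts with RSL3+ID and 64.3 to 85.7 with RSL3 (log2 fold change 0.15, 95% interval −0.47 to 0.78, limma adjusted p = 0.814). S100A16, which is widely expressed, had 2646 to 3117 with RSL3+ID and 2835 to 3566 with RSL3 (log2 fold change −0.12, 95% interval −0.44 to 0.20, limma adjusted p = 0.696).

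**Figure D3:**
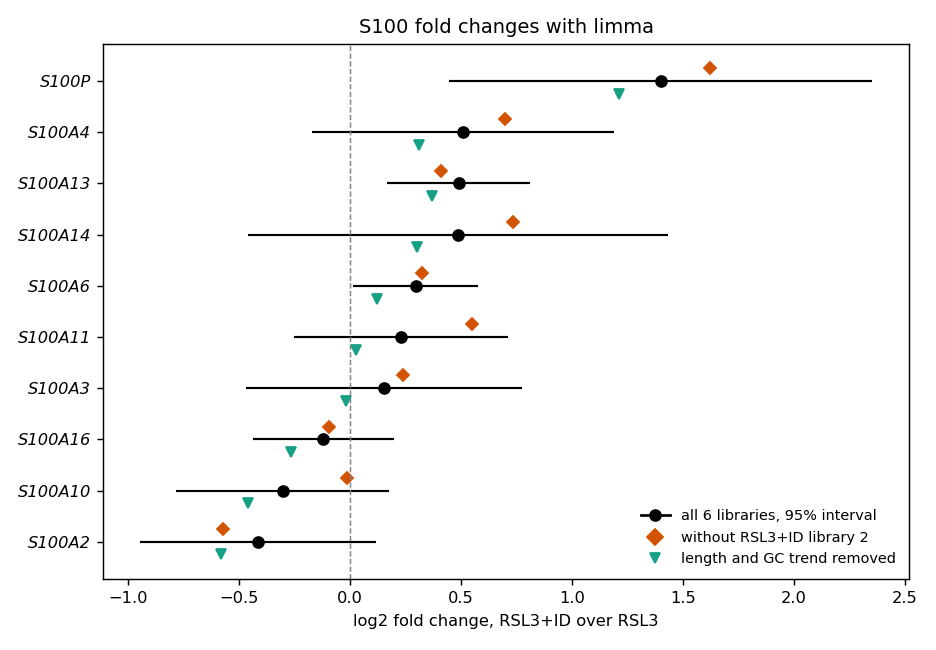
Log2 fold changes of RSL3+ID over RSL3 (x axis) for the 10 S100 genes (y axis) with all 6 libraries and their 95% intervals (black), without RSL3+ID library 2 (orange diamonds) and after the trend on length and GC was taken out (green triangles). The intervals of S100P, S100A13 and S100A6 lay above 0 before adjustment, and the estimate of S100A11 was 0.23 with all libraries, 0.55 without RSL3+ID library 2 and 0.029 without the trend.

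S100 messages are short, at 594 to 1279 bases of principal transcript against a median of 3032 over all tested genes, and fold change moved with length in these libraries. The 1350 tested genes of the same lengths had a median log2 fold change of 0.20, and 68.9% of them had a positive estimate. Of these 1350 genes, 24.2% had every RSL3+ID library above every RSL3 library and 3.93% every one below, and 2.67% rose and 0.444% fell in limma's test. With the trend on exon length and GC content removed from each library, the median of the 10 S100 genes was 0.076. The estimates were then 1.21 for S100P, 0.37 for S100A13, 0.31 for S100A4, −0.58 for S100A2 and −0.46 for S100A10, and none passed.

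Some genes varied together over the libraries. S100A14 and S100P were both lowest in RSL3 library 3, by 1.11 and 1.61 on the log2 scale below their means over the 6 libraries, and their Pearson r over the 6 libraries was 0.84 (0.92 for deviations from the group means). S100A2 ran opposite to several genes, with r of −0.89 with S100A4 and −0.83 with S100A11 (−0.75 and −0.99 for deviations from the group means). RSL3+ID library 2 weighed most in the latter, at 0.32 for S100A2, −0.38 for S100A4 and −0.64 for S100A11. In the RSL3 libraries these deviations were −0.029 to 0.031 for S100A2 and −0.034 to 0.048 for S100A11. The correlations without RSL3+ID library 2 were not computed. S100A6 and S100A13 had r = 0.73 over the 6 libraries, but −0.27 for deviations from the group means, so within groups they did not vary together. These correlations over 6 libraries describe libraries that share depth and scaling, and carry no test.

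**Figure D4:**
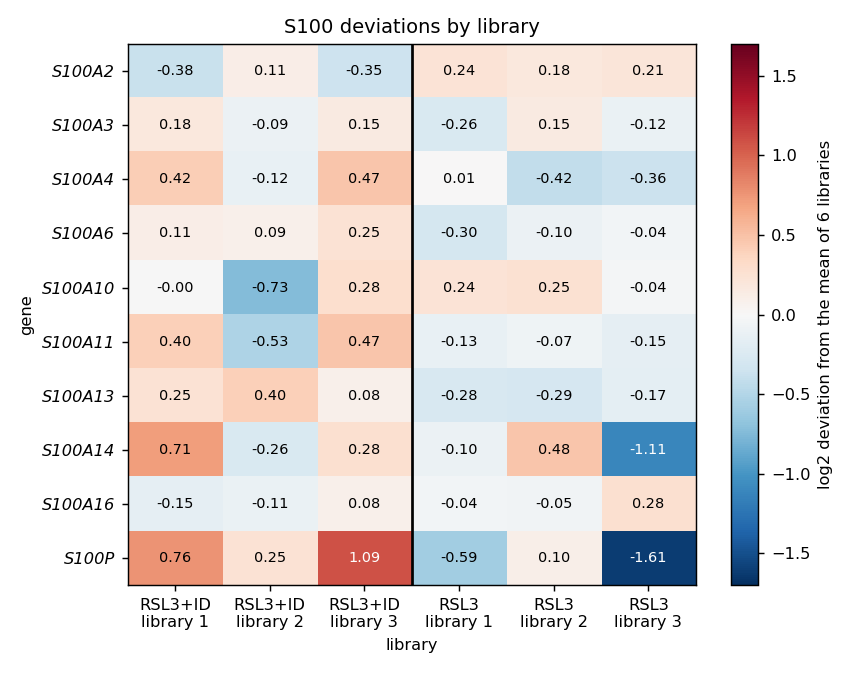
Deviation of each S100 gene (rows) from its mean over the 6 libraries (columns, RSL3+ID left of the line, RSL3 right), on the log2 scale. RSL3+ID library 2 held the lowest values of S100A10 (−0.73) and S100A11 (−0.53), and RSL3 library 3 those of S100A14 (−1.11) and S100P (−1.61).

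By GENCODE 29 on GRCh38, 9 of the genes lie on chromosome 1 and all are annotated as protein-coding, with each span covering exons, introns and untranslated regions. S100A10 (ENSG00000197747) spans 151982915 to 151994390 and S100A11 (ENSG00000163191) 152032506 to 152047907. The rest of the chromosome 1 group runs from S100A6 (ENSG00000197956), which begins at 153534599, to S100A13 (ENSG00000189171), which ends at 153631360. S100P (ENSG00000163993) lies on chromosome 4 from 6693069 to 6697170. Of the 37 tested protein-coding genes that start within 500 kb of a member, 1 rose, ILF2, an RNA-binding protein gene 43.0 kb from S100A13 (log2 fold change 0.59, limma adjusted p = 0.0426), and 0 fell. That is 2.70% of the neighbours rising, against 1.08% of all tested genes. ILF2 had an adjusted p of 0.00330 without RSL3+ID library 2 and of 0.0770 to 0.267, not called, without any 1 of the other libraries. Its estimate was 0.54 to 0.63 over these settings, which apart from the first called 0 to 4 of all tested genes. The median log2 fold change of the neighbours was 0.043, with 20 positive and 17 negative estimates. MRFAP1L1, which starts 14.6 kb from S100P, was at 0.67 on the log2 scale (adjusted p = 0.108) with no overlap between the groups.

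Outside the 10 genes, S100A1 was the single other S100 gene that reached the filter, with 26.0 to 30.6 normalised counts with RSL3+ID and 16.5 to 27.9 with RSL3 (log2 fold change 0.37, adjusted p = 0.689). S100Z, which was found as a partner of S100P, had 12, 3 and 10 reads in RSL3+ID libraries 1 to 3, against 0, 2 and 0 in RSL3 libraries 1 to 3, or 25 reads against 2 in sum. It lay under the filter, and without the filter it did not pass (limma adjusted p = 0.225). S100A7, S100A7A and S100G had 0 reads in every library. The genes of the cornified envelope and the fused S100 proteins of the same complex were mostly at low counts. Of 18 listed genes, 7 had 0 reads throughout and 3 were tested, of which limma and limma-voom called 0 (1 at an unadjusted p under 0.05, against 19.3% of all tested genes). TCHH, the trichohyalin gene, was at 0.70 on the log2 scale (adjusted p = 0.194). Without RSL3+ID library 2 it was at 0.89 and passed (adjusted p = 0.0458), and 1 of the 3 passed, against 9.34% of all tested genes in that setting. S100A8 and S100A9, the subunits of calprotectin in neutrophils and monocytes, had reads in 1 library alone, RSL3 library 1.

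Genes of the proteins that S100 dimers bind did not pass either. Of 30 tested partners, receptors and regulators limma and limma-voom called 0, against 1.91% of all tested genes, and 6 had an unadjusted p under 0.05, against 19.3%. There were 12 positive and 18 negative estimates and a median log2 fold change of −0.15, against −0.016 over all tested genes. AGER, the receptor, had 73.9, 55.5 and 59.7 normalised counts in RSL3+ID libraries 1 to 3, against 44.7, 27.9 and 39.2 in RSL3 libraries 1 to 3. The groups did not overlap (log2 fold change 0.76, SE 0.35, limma adjusted p = 0.258). BSG, the basigin gene, whose protein binds S100A9, had 14584 to 15002 with RSL3+ID and 11387 to 11892 with RSL3 (log2 fold change 0.35, limma adjusted p = 0.133). STIP1, a co-chaperone that S100 proteins bind, had 18567 to 24635 with RSL3+ID and 28279 to 32457 with RSL3 (log2 fold change −0.49, adjusted p = 0.0828). STIP1 passed at −0.37 with RSL3+ID library 2 left out (adjusted p = 0.0332), and then 2 of the 30 genes passed, against 9.34% of all tested genes. EZR, which encodes the S100P partner ezrin, had a log2 fold change of 0.17 (adjusted p = 0.491). AGER, BSG and STIP1 were singled out after their values were seen. Of 16 tested calmodulin and other small calcium sensor genes limma and limma-voom called 0, against 1.91% of all tested genes, and 2 had an unadjusted p under 0.05, against 19.3%. Their median was 0.16 with 11 positive estimates, and the calmodulin genes CALM2 and CALM3 had log2 fold changes of 0.33 and 0.30 (adjusted p = 0.320 and 0.272). CALM2 was at 0.48 and passed with RSL3+ID library 2 left out (adjusted p = 0.0433), and then 2 of the 16 genes passed, against 9.34% of all tested genes.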

How the data were processed

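Total RNA of BEAS-2B cells was sequenced in 6 libraries, 3 per group, and groups come from the treatment field; columns were assigned by name alone (3 name RSL3, 3 add a garbled word that reads "drug given" in Chinese and were taken as RSL3+ID). The submitters' processing notes list Trimmomatic 0.39, HISAT2 2.2.1, StringTie 2.1.5, DESeq2 1.30.0 and GRCh38; the counter, strand setting and annotation were not given in the sources used here. The deposited expression values are log2, and from the values themselves take the form of a variance-stabilising transform. Its inversion gave normalised counts (counts divided by a size factor) whose means matched the deposited base mean, a signal column, within 2.5e-14 for 894 genes, and each of them, divided by the worth of 1 read in its library, was whole to within 0.001 (100.0% of values). Another deposited table gives the authors' log2 fold changes, a test score per gene and adjusted p-values. 214 repeated identifiers were left out. The test was limma, and version 3.58.1 (R 4.3.3; trended, robust) was run on log2(normalised count + 1) with a mean normalised count of at least 10, and p-values are 2-sided and adjusted by Benjamini-Hochberg over 14188 genes. The procedure was tested on simulated data with known changes. Fold changes on this scale understate those of low genes. Genes, lists and tests were chosen with earlier results of these data known; named are the 10 genes, the called genes of each list, the other S100 genes, the 5 genes most alike in pattern, and further genes of the lists that were picked with their values known. Alternatives covered pseudocount, filter, scaling, test, length and GC, a replicate block and each library left out. Some genes of the lists and 1 window before a start are not reported here.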

Additional observations from a re-analysis of the deposited data

Results flagged for a closer look

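S100A9 had 47 reads and S100A8 20 reads in RSL3 library 1, against 0 in each of the other 5 libraries. Both lay under the filter of the test, and their reads exceed the 3 that a count of 0 allows. S100A12, the third calgranulin gene, had 2 reads in the same library and 0 elsewhere. Among the leukocyte markers, LYZ had 0, 0 and 1 reads in RSL3+ID libraries 1 to 3 and 13, 4 and 0 in RSL3 libraries 1 to 3, PTPRC had at most 2 reads in any library and CD3E 0 in all. CD14 had 775, 524 and 867 reads with RSL3+ID and 611, 541 and 400 with RSL3, and CD68 had 2, 7 and 3 with RSL3+ID and 1, 0 and 1 with RSL3, so neither was highest in RSL3 library 1 over all libraries. The beta-globin gene HBB, singled out after its values were seen, had 19 reads in RSL3 library 1 and 0 in the others. The alpha-globin genes HBA1 and HBA2, near-identical copies, did not show this pattern: HBA1 had 52, 44 and 48 reads with RSL3+ID and 30, 34 and 22 with RSL3, and HBA2 had 42, 14 and 51 with RSL3+ID and 27, 5 and 23 with RSL3. 14 genes had at least 10 reads in RSL3 library 1 and 0 elsewhere, against 16, 1 and 9 genes in RSL3+ID libraries 1 to 3 and 12 and 4 in RSL3 libraries 2 and 3. Without RSL3 library 1 the log2 fold changes were 1.45 for S100P, 0.47 for S100A13 and 0.22 for S100A6, and 0 of the 10 genes passed in limma's test, as did 0 of all 14188 tested genes (1777 at an unadjusted p under 0.05).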

How the results depend on the processing

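Of 170 estimates of single S100 genes under 17 alternatives, 165 kept their direction and their side of the threshold and 3 newly passed. S100P and S100A11 passed without RSL3+ID library 2, and S100P passed with RSL3 library 1 left out as well (adjusted p = 0.0496), a setting chosen after the data were seen. 2 turned in sign: S100A3 was at −0.017 with the length and GC trend removed, and S100A10 at 0.031 without both libraries. Keeping to the same side of the threshold says little in settings that called hardly any gene. The replicate block called 0 of all tested genes, and leaving out any 1 library but RSL3+ID library 2 called 0 to 4. The count of S100 genes called was 0 with all libraries, 0 to 2 with 1 library left out and 1 without both. The count of all genes called was 271 with all libraries and 509 without both libraries. With 1 library left out it ran from 0 to 1325, with 0, 1325 and 4 when RSL3+ID library 1, 2 or 3 was dropped, against 0, 3 and 3 for those of RSL3. At an unadjusted p under 0.05 limma gave 2594 genes with RSL3+ID library 1 dropped and 1777 with RSL3 library 1 dropped. The replicate block gave 0 calls (1993 genes at an unadjusted p under 0.05). Same-numbered libraries had correlations of their deviations between −0.25 and −0.0025, and 0 of 3 correlated best with its own number, so the numbers were not taken to pair libraries. Higher genes made up 56.5% of the calls, 29.3% with total count scaling and 73.8% with upper-quartile scaling. S100P, S100A14, S100A4 and S100A3 rest on at most 124 reads per library, which limits their precision.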

Other observations

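Of 10039 other tested genes with a mean normalised count of at least 100, the 5 whose log2 values over the 6 libraries most resembled the mean z-score of the 10 S100 genes were BTG3 (r = 0.99), an antiproliferative gene, FAM72B (r = 0.99), TPST1 (r = 0.99), a tyrosylprotein sulfotransferase gene, FBXO33 (r = 0.98), an F-box gene, and RHOU (r = 0.98), a small GTPase gene. All 5 had overlapping groups and positive estimates, from 0.25 for TPST1 to 0.57 for FAM72B on the log2 scale, and 0 of the 5 passed. With 6 libraries and this many candidates such values are descriptions, and FAM72B has near-identical copies that may share its reads.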
